A study of Mus musculus with 10 samples.

Results

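The 6 genes described here encode the TAM receptor kinases Mertk, Axl and Tyro3, their secreted ligands Gas6 and Pros1, and the bridging protein Mfge8. They were chosen by name, and all 6 were found among the 55357 gene rows of each deposited table. Poly(A) RNA was sequenced from 6 mouse hearts and from 4 cultures of peritoneal macrophages. Every heart was labelled Cd163-/-, that is, without the macrophage scavenger receptor for haptoglobin-haemoglobin complexes, and had received saline (n = 3) or recombinant interleukin-10 (IL-10, n = 3). According to the series' design text, male mice aged 8 weeks underwent constriction of the transverse aorta, which overloads the left ventricle. IL-10 (50 µg/kg/day) was injected under the skin repeatedly between day 0 and day 27 after it. Whether each sequenced heart was constricted is not in its own labels, and neither sham operation nor a wild-type heart is among the samples analysed here. The macrophages were wild type (n = 2) or Cd163-/- (n = 2), on a C57BL/6 background, elicited with thioglycolate and selected by adherence. All 4 macrophage libraries came from cells held in 100 nM dexamethasone, a synthetic glucocorticoid, for 48 h, so no culture without the drug was compared. The labels leave unsaid whether the replicates of a group are different mice or cultures. The p-values therefore reflect the scatter among these libraries alone, part of which may be technical.

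TAM receptors are receptor tyrosine kinases that bind phosphatidylserine, the lipid that dying cells expose, through a soluble bridge. Gas6 and protein S (Pros1) hold the lipid by a domain that vitamin K-dependent carboxylation makes active, and they engage the receptor by their other end. Mfge8 links phosphatidylserine to the integrins alpha v beta 3 and alpha v beta 5 instead. Mertk is known as the main receptor by which macrophages, those of the heart included, engulf dying cells, and Axl as a receptor that also dampens inflammatory signalling. Tyro3 is best known from the nervous system. Gas6 binds all 3 receptors, whereas Pros1 is known as a ligand of Mertk and Tyro3.

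The promoters of Gas6, Pros1 and Mfge8 are shown because these were the members called in one of the comparisons below. Each is the run of 250 bases before the transcription start in RefSeq (GRCm38.p6), read on the gene's strand from 5′ to 3′, with every GC box (GGGCGG, on either strand) in capitals.
Gas6, chr8:13494536-13494785, strand -: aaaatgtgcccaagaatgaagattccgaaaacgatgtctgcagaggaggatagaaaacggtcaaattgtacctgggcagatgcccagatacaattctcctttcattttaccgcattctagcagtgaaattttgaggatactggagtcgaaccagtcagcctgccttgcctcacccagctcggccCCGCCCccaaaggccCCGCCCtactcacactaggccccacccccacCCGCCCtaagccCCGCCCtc
Pros1, chr16:62854057-62854306, strand +: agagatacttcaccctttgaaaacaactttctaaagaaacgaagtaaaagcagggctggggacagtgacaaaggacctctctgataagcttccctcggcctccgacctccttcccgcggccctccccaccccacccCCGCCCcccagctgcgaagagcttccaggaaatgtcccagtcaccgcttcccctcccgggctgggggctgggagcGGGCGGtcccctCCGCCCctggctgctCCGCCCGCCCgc
Mfge8, chr7:79149061-79149310, strand -: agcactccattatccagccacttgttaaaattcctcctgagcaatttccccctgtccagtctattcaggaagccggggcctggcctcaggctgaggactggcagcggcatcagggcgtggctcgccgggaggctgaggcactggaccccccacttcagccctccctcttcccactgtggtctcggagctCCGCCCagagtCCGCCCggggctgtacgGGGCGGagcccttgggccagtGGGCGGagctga
A GC box is the short motif that Sp-family factors are known to bind. It was found 4 times before Gas6, 5 times before Pros1, where 2 matches overlap, and 4 times before Mfge8. The promoters of Mertk, Axl and Tyro3 held 3, 1 and 3 matches, so 6 of 6 members had at least 1, against 32.7% of the 32851 promoters of the same length in the table. Other short motifs were searched on both strands, and the 6 windows held 0 matches to any of them. The core promoter motif TATAAA was present in 12.4% of all promoters and the motif CCAAT in 33.8%. The nuclear receptor half-site, AGGTCA, was present in 14% of them. The glucocorticoid receptor half-site, AGAACA, was present in 16.1%, and the Maf half-site, TGCTGA, also in 16.1%. The GC content of the 6 windows ran from 54.8% before Gas6 to 73.2% before Tyro3, with a median of 52.4% over all promoters.

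Total counts ran from 13483335 to 14939465 in the hearts and from 16729749 to 18619288 in the macrophages. The unit of level is CPM, counts scaled to a common library size, and CPM per kb of exon where genes are set against each other. Mitochondrially encoded transcripts made up 33.7% to 39.4% of heart counts and 2.43% to 3.12% of macrophage counts. The library sizes behind CPM include them, which lowers the CPM of all other genes in hearts. Cd163 had 352 and 205 counts in wild-type and 9 and 14 in Cd163-/- macrophages. The Cd163-/- hearts still held 34 to 57 counts, and the labels do not say which part of the gene was deleted. The sum of 10 macrophage markers was 25667 and 30217 CPM in wild-type and 22289 and 23356 CPM in Cd163-/- cultures, with none at 0. The sum of 8 cardiomyocyte markers was 32030 to 44414 CPM in hearts and 29.8 to 56.9 CPM in macrophages.

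Mertk (chromosome 2, 128698956 to 128802894 in GENCODE M21 on GRCm38) was the member that differed most between the kinds of sample. Saline hearts had 8.86, 6.05 and 7.18 CPM and IL-10 hearts 5.11, 6.54 and 7.38 CPM, and the groups overlapped. Wild-type macrophages had 350 and 329 CPM and Cd163-/- macrophages 380 and 458 CPM, with every knockout culture above every wild-type culture. The mean level in wild-type macrophages was 46.1 times that of saline hearts. That of Cd163-/- macrophages, which share the genotype of the hearts, was 56.9 times the saline heart level. The tables were scaled apart and differ in tissue, drug and mitochondrial share, and the first ratio also in genotype, so neither has a test. In order of mean level the groups ran Cd163-/- macrophages (419 ± 54.9 CPM, SD, n = 2), wild-type macrophages (339 ± 14.5), saline hearts (7.36 ± 1.41, n = 3) and IL-10 hearts (6.34 ± 1.15). Neither neighbour pair within a table passed the test. For Mertk the log2 ratio of IL-10 to saline hearts was -0.21 with an SE of 0.21 (adjusted p = 0.536, edgeR's quasi-likelihood test). The ratio of Cd163-/- to wild-type macrophages was 0.30 with an SE of 0.15 (adjusted p = 0.189, same test). In bulk hearts, fewer cells of a type and less RNA per cell cannot be told apart.

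Axl (chromosome 7, 25757273 to 25788705), the TAM receptor with Gas6 as its ligand, stood at like CPM in both kinds of sample. Given the larger mitochondrial share of the hearts, like CPM need not mean a like share of the other transcripts. Saline hearts had 154, 145 and 155 CPM, IL-10 hearts 112, 133 and 166 CPM and wild-type macrophages 130 and 171 CPM, and these 3 ranges overlapped. The Cd163-/- macrophages were highest, at 250 and 208 CPM. That was 1.52-fold over wild type (log2 0.61, SE 0.18), without overlap of the groups, and just missed the threshold (edgeR quasi-likelihood, adjusted p = 0.0535). Axl passed in 5 of 12 alternatives and did not in 7. It passed with DESeq2 (adjusted p = 0.0242), with upper-quartile scaling (0.0332), with library size alone (0.0292) and without a filter on low counts (0.0019). In hearts the log2 fold change was -0.15 (SE 0.13; adjusted p = 0.508) and went from -0.29 without IL-10 replicate 3 to -0.01 without IL-10 replicate 1.

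Tyro3 (chromosome 2, 119797733 to 119818104) was the least abundant receptor per kb of exon in every library. Saline hearts held 46, 39 and 62 counts, or 3.37, 2.84 and 3.97 CPM, and IL-10 hearts 33, 28 and 41 counts, or 2.28, 2.06 and 2.88 CPM. The highest IL-10 heart lay just above the lowest saline heart, and the difference did not pass (log2 -0.50, SE 0.28; edgeR quasi-likelihood, adjusted p = 0.256). Wild-type macrophages had 13 counts each, and Cd163-/- macrophages 44 and 23, or 0.772 and 0.826 against 2.19 and 1.28 CPM. The groups did not overlap, but these are few reads, and the log2 fold change of 1.12 (SE 0.42) did not pass (adjusted p = 0.0983).

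**Figure D1:**
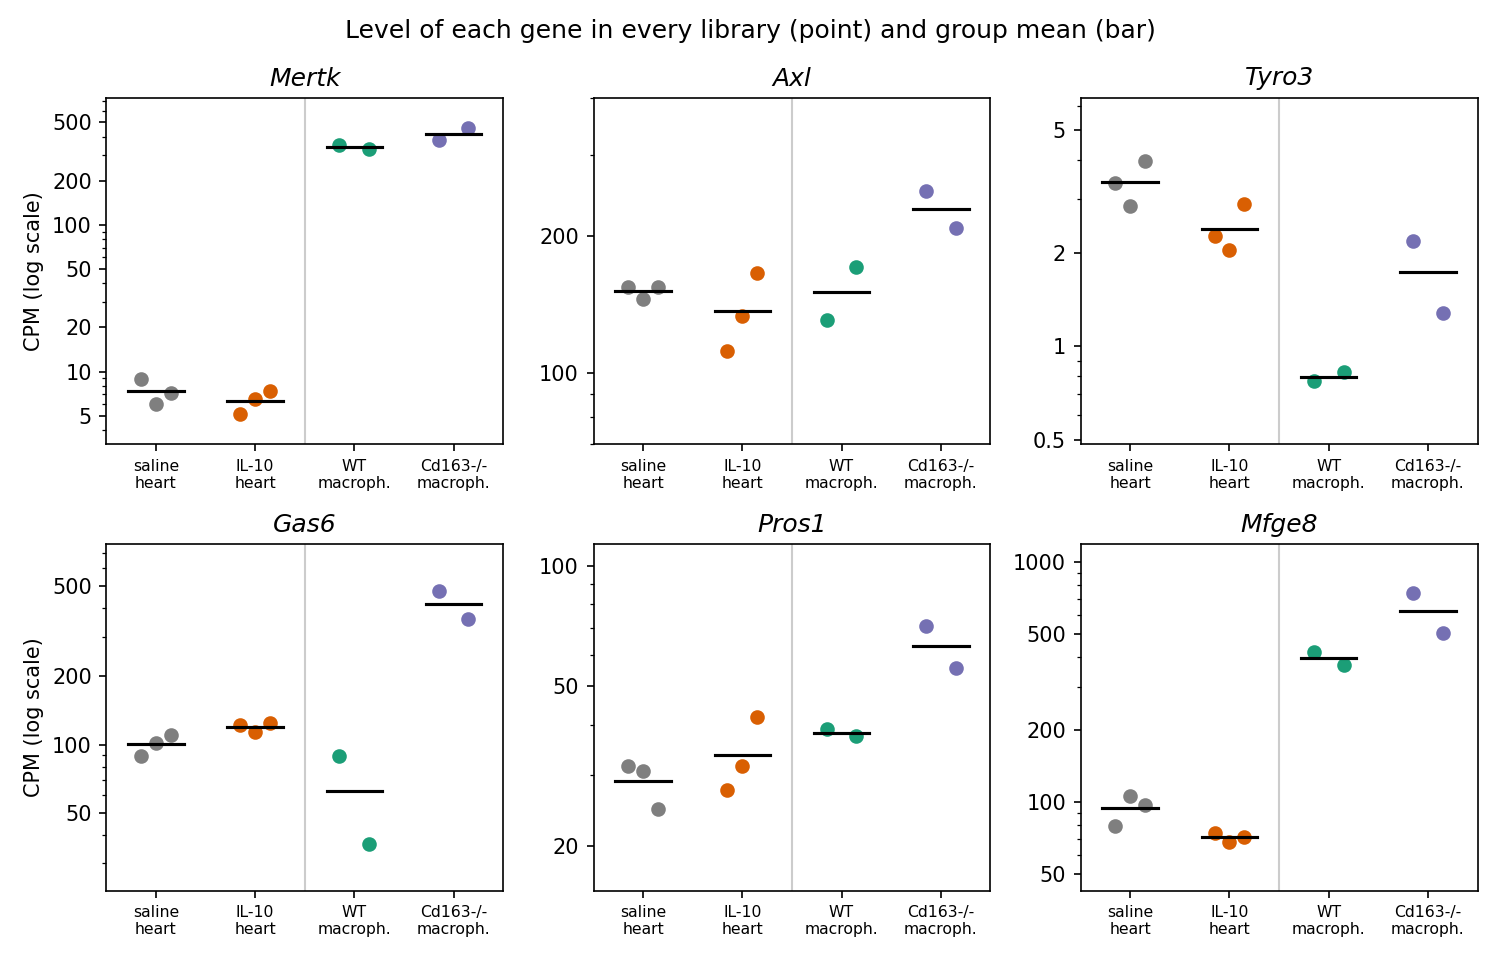
CPM (log scale) of the 6 genes in each library, as points in 4 groups with the group mean as a bar. The grey line separates the heart table from the macrophage table, which were scaled apart. Mertk lies between 5.11 and 8.86 CPM in hearts and between 329 and 458 CPM in macrophages, and in all 6 panels the Cd163-/- macrophages lie above the wild-type ones.

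Read per kb of exon, the receptor transcripts of the hearts were mostly Axl and those of the macrophages mostly Mertk. Axl made up 93.1% ± 0.87 (SD, n = 3) of the summed receptor level in saline hearts and 93.6% ± 0.194 in IL-10 hearts, and Mertk 5.23% ± 0.821 and 5.05% ± 0.251. In macrophages Mertk made up 72.3% ± 4.64 of wild-type and 67.7% ± 5.72 of Cd163-/- receptor transcripts (n = 2 each), and Axl 27.6% ± 4.64 and 32.1% ± 5.64. The lowest Mertk share of any macrophage library was 63.6% and the highest of any heart 6.14%. Tyro3 was at most 1.94% in a heart and 0.257% in a macrophage library. Between the groups within a table the shares of Mertk and of Axl overlapped. Exon lengths came from GENCODE M21, and the annotation used for counting is not given in the sources used here.

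Of the ligands, Gas6 (chromosome 8, 13465374 to 13494490) showed the largest fold change of any member within a table. Wild-type macrophages had 88.8 and 36.4 CPM and Cd163-/- macrophages 479 and 358 CPM. The lowest knockout culture was thus far above the highest wild-type culture, and the wild-type cultures themselves lay far apart. Gas6 rose 6.68-fold in Cd163-/- macrophages (log2 2.74, SE 0.43; edgeR quasi-likelihood, adjusted p = 0.0087), the 1077th smallest p of 13861 genes. The fold change stayed between 2.23 and 3.52 on the log2 scale when any 1 culture was left out, and the call was lost without Cd163-/- replicate 1 (log2 2.51, adjusted p = 0.0702). Saline hearts had 89.3, 102 and 111 CPM of Gas6 and IL-10 hearts 123, 113 and 125 CPM. Every IL-10 heart was above every saline heart, by a small margin, and the difference did not pass (log2 0.26, SE 0.11; adjusted p = 0.144). In mean level the order was Cd163-/- macrophages (418 ± 85.5 CPM), IL-10 hearts (120 ± 6.04), saline hearts (101 ± 10.9) and wild-type macrophages (62.6 ± 37.0). Of the exonic bases of Gas6, 1.33% overlap the oppositely oriented gene Tmem255b, whose reads this kit cannot tell apart there.

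Pros1 (chromosome 16, 62854307 to 62929346), protein S, is also a plasma anticoagulant. It had 39.2 and 37.6 CPM in wild-type and 70.6 and 55.6 CPM in Cd163-/- macrophages, without overlap. It rose 1.65-fold (log2 0.72, SE 0.15; edgeR quasi-likelihood, adjusted p = 0.0196), and the call was lost without Cd163-/- replicate 1 (log2 0.54, adjusted p = 0.12). Saline hearts had 31.7, 30.8 and 24.8 CPM and IL-10 hearts 27.5, 31.7 and 41.8 CPM, and the groups overlapped (log2 0.21, SE 0.15; adjusted p = 0.378). IL-10 replicate 3 was the highest heart, and without it the log2 fold change was 0.04. Per kb of exon, Gas6 made up 69.7% ± 12.4 of the summed ligand level in wild-type and 91.4% ± 0.289 in Cd163-/- macrophages (n = 2 each), and 84.6% ± 2.97 in saline and 85.2% ± 2.49 in IL-10 hearts (n = 3 each). The 2 wild-type cultures were at 78.4% and 60.9%, below the 91.2% and 91.6% of the knockout cultures, whereas the heart groups overlapped.

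**Figure D2:**
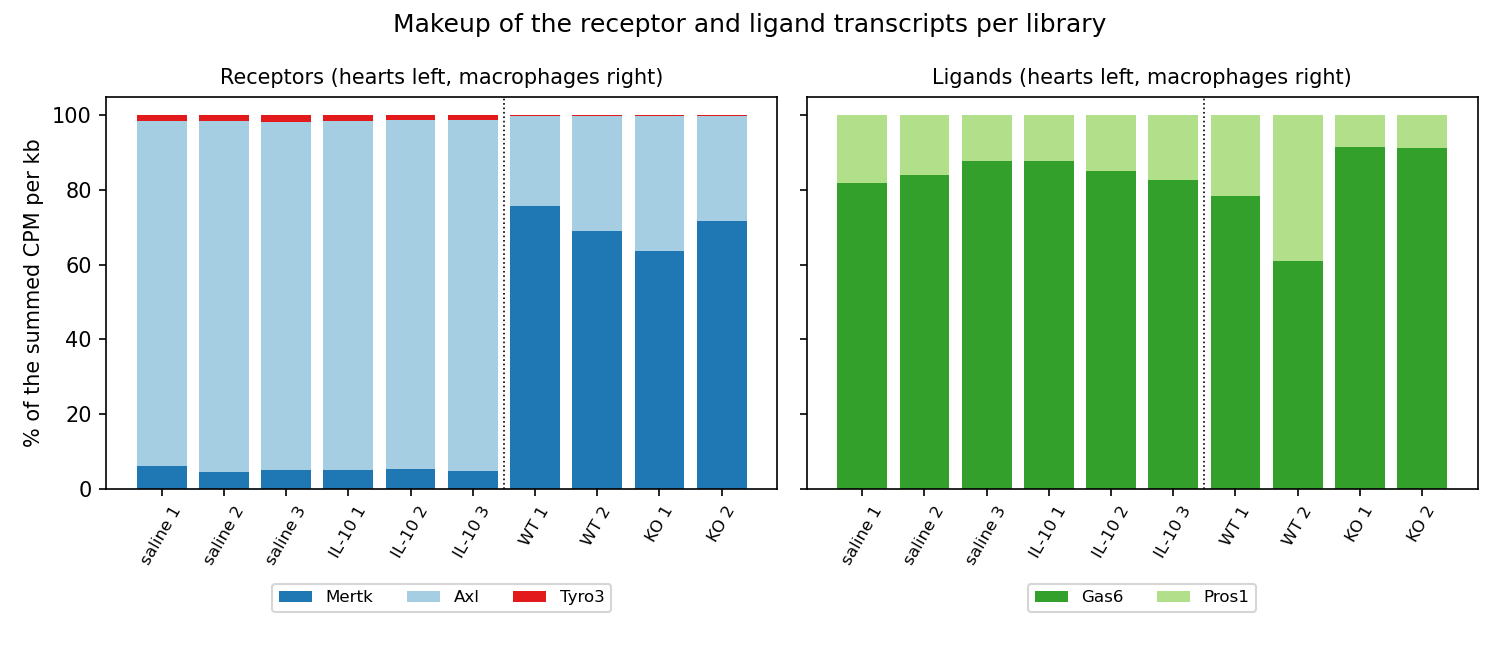
Share (%) of each gene in the summed CPM per kb of the 3 receptors (left) and of the 2 ligands (right), 1 bar per library. Axl fills over 92% of the receptor bars in hearts, Mertk 63.6% to 75.6% in macrophages, and Gas6 91.2% and 91.6% of the ligand bars in the Cd163-/- cultures.

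Mfge8 (chromosome 7, 79133768 to 79149060), the integrin-binding bridging protein, was the member called in hearts. Saline hearts had 79.5, 106 and 96.8 CPM and IL-10 hearts 74.6, 68.5 and 71.4 CPM. Each IL-10 heart lay below each saline heart, and saline replicate 1 was close to the IL-10 range. The group means were 94.1 ± 13.5 and 71.5 ± 3.06 CPM (SD, n = 3 each). Mfge8 fell by 0.40 on the log2 scale (SE 0.12; edgeR quasi-likelihood, adjusted p = 0.0344). The fall kept its direction in 14 of 14 alternatives, but the call was lost without any 1 of 5 hearts: saline replicate 2 (log2 -0.30, adjusted p = 0.128), saline replicate 3 (-0.37, 0.104), or an IL-10 heart, the first (-0.42, 0.0627), the second (-0.37, 0.136) or the third (-0.38, 0.0655). In macrophages Mfge8 had 421 and 374 CPM in wild-type and 740 and 505 CPM in Cd163-/- cells. Per kb of exon its mean level in wild-type cells, 84.7 CPM per kb, was close to the 78.3 of Mertk, and both were the highest of the 6 members there. The groups did not overlap, and the 1.57-fold difference (log2 0.65, SE 0.22) did not pass (adjusted p = 0.0737). It did pass in 4 of 12 alternatives, among them DESeq2 (adjusted p = 0.0248), library size alone (0.0436) and no filter (0.00148), and not in 8. Cd163-/- replicate 1 was far above the other cultures, and without it the log2 fold change was 0.35.

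Of the 6 members, 1 fell and 0 rose in IL-10 hearts, and in 2 of 6 the groups did not overlap, as in 31.6% of all tested genes. Over all 13718 genes tested there, 6.7% fell and 6.86% rose. In Cd163-/- macrophages 2 of 6 rose and 0 fell, where 13.1% of 13861 tested genes rose and 13.3% fell. All 6 members were higher in both knockout cultures than in both wild-type cultures, a pattern that 35.3% of all tested genes showed (69.4% were without overlap in either direction), and these 6 values come from the same 4 libraries. The median log2 fold change of the members was 0.68 in macrophages and -0.18 in hearts, against 0.01 and -0.01 over all tested genes. The scaling bears on the macrophage direction. By library size alone the median of all genes moved to 0.19 and by upper quartile to 0.13, and 2665 and 2310 genes were called higher against 1220 and 1403 lower, where the TMM-scaled fit called 1817 higher and 1846 lower. In hearts the same scalings gave 549 and 716 genes higher against 993 and 1120 lower, beside 941 and 919. The 6 members kept their direction under each scaling in both comparisons.

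**Figure D3:**
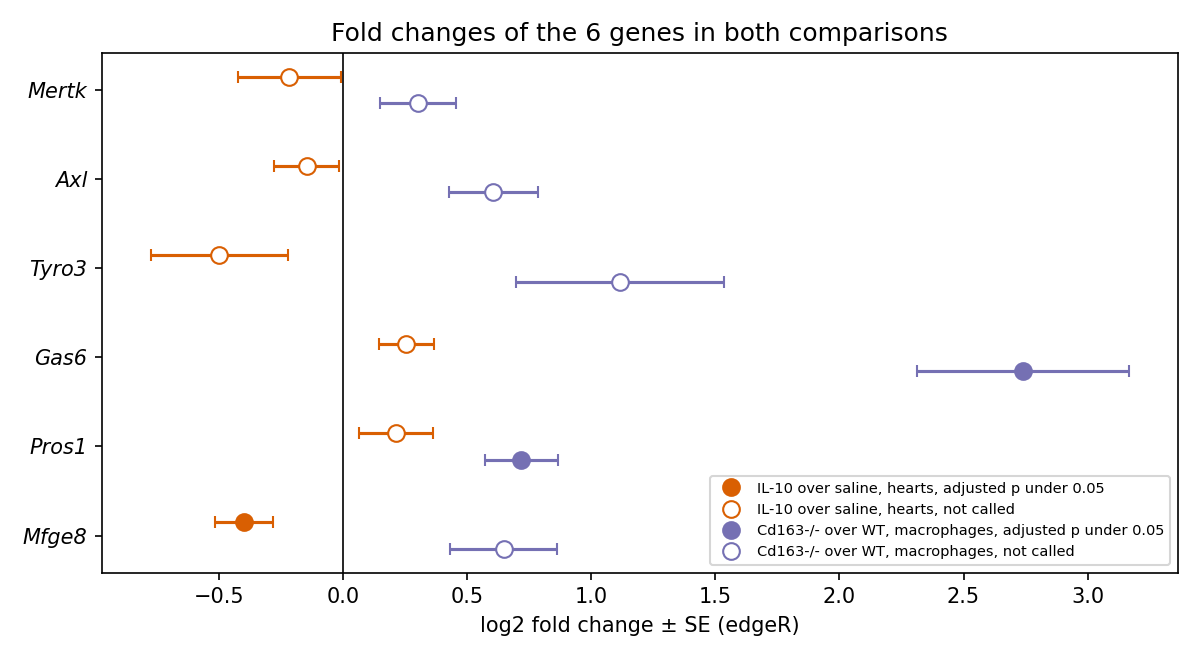
Log2 fold change with its SE for the 6 genes in hearts (orange, IL-10 over saline) and in macrophages (purple, Cd163-/- over wild type), filled where the adjusted p was under 0.05. The macrophage points all lie above 0, from 0.30 for Mertk to 2.74 for Gas6, and the heart points between -0.50 and 0.26.

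Markers of other cell types moved with genotype in the macrophage cultures. Of 6 mesothelial markers (the lining cells of the peritoneum) 4 rose and 0 fell in Cd163-/- cultures. Of 7 tested fibroblast markers 4 rose and 1 fell. Over all genes tested in macrophages 13.1% rose and 13.3% fell. The summed mesothelial level was 146 and 94.5 CPM in wild-type replicates 1 and 2 and 371 and 294 CPM in Cd163-/- replicates 1 and 2. Gas6, Pros1 and Mfge8 stood in the same order over the 4 cultures, and Mertk, Axl and Tyro3 did not. How many of all tested genes stood in that order was not counted, so nothing about these members is read from it. The summed level of 8 fibroblast markers was 1680 and 2481 CPM in wild type and 4892 and 3713 CPM in the knockout. In either group 0 of these markers were at 0. The 4 that rose were Lum and the collagen genes Col1a1 (mean 355 to 1003 CPM), Col1a2 (651 to 1439) and Col3a1 (228 to 1084). Pdgfra fell from a mean of 291 to 117 CPM (log2 -1.32), Dcn and Ddr2 were not called, and Tcf21 was too low to test. Of 5 tested markers of smooth muscle and pericytes 2 rose. Among 10 macrophage markers 2 fell, Cd14 (log2 -3.33) and Adgre1 (-0.80), and 0 rose. Their sum was lower in both knockout cultures and was mostly Lyz2 (means 21027.5 CPM in wild type and 16929.8 CPM in the knockout), which was not called. Both tested neutrophil markers fell, Csf3r from a mean of 232 to 71.3 CPM and S100a8 from 14.7 to 2.45 CPM. The sums of 6 neutrophil markers were 166 and 329 CPM in wild-type and 49.7 and 98.1 CPM in Cd163-/- cultures, mostly Csf3r. The other 4, S100a9, Cxcr2, Retnlg and Ngp, had 0 counts in both wild-type cultures. The part of these cell types in the levels of Gas6, Pros1, Axl, Tyro3 and Mfge8 was not tested. In hearts 3 of 8 fibroblast markers fell and 1 rose, and 1 of 8 cardiomyocyte markers fell and 1 rose. Of the endothelial markers 2 of 7 fell, of the tested smooth muscle and pericyte markers 2 of 6, and of the macrophage markers 1 of 10. Over all genes tested in hearts 6.7% fell and 6.86% rose. All 5 red blood cell markers fell, from sums of 582 to 1189 CPM to sums of 300.4 to 548 CPM. The part of these in the fall of Mfge8 was not tested either.

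**Figure D4:**
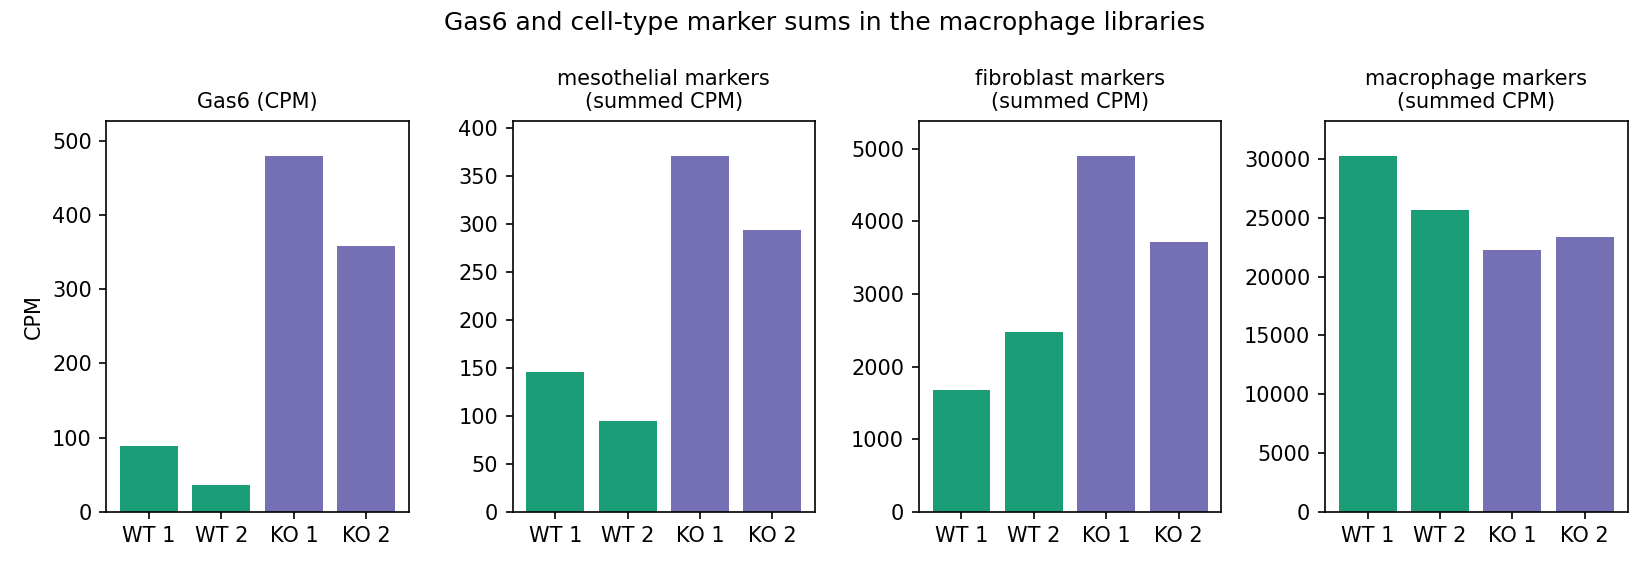
Gas6 (CPM) and the summed CPM of mesothelial, fibroblast and macrophage markers in the 4 macrophage libraries (WT, wild type; KO, Cd163-/-), with axes from 0. Gas6 and the mesothelial and fibroblast sums are higher in both knockout libraries. The macrophage sum is lower in both, at 22289 and 23356 CPM against 30217 and 25667 CPM in wild type.

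Over the 6 hearts, the members did not form 1 pattern. The highest correlation between members was that of Mertk with Axl (Pearson's r = 0.81 on log2 CPM) and the lowest that of Mertk with Gas6 (-0.57). The genes most like each member over the same 6 hearts, out of 9526 named protein-coding genes averaging 5 CPM or more (9527 for Tyro3), were Aldh1a2, Gspt1 and Las1l for Mertk (r = 0.988 to 0.979) and Invs, Manf and Frmd4b for Axl (0.994 to 0.984). Sept9, Tbl1x and Os9 came nearest to Tyro3 (0.995 to 0.994) and Nr1h2, Kctd1 and Tfeb to Gas6 (0.996 to 0.990). Prpf18, Ccdc66 and Medag came nearest to Pros1 (0.984 to 0.980) and Edc4, Tut1 and Ercc1 to Mfge8 (0.997 to 0.977). These are the largest of very many correlations over 6 libraries that share their groups and scaling, and they carry no test.

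The surrounding machinery of apoptotic-cell clearance was read from 83 other genes in 5 lists. In IL-10 hearts 3 of 72 tested genes rose and 10 fell, with a median log2 fold change of -0.05, where 6.86% of all tested genes rose and 6.7% fell with a median of -0.01. Without any 1 heart 2 to 5 rose and 3 to 11 fell, the fewest falls without IL-10 replicate 2, and 5 with any 1 of saline replicates 1 and 3 and IL-10 replicate 1 left out. Among phosphatidylserine receptors, Timd4, a receptor of resident macrophages, was at 1.90, 1.02 and 0.961 CPM after saline and 3.11, 3.38 and 4.57 CPM after IL-10, and rose by 1.51 on the log2 scale (edgeR quasi-likelihood, adjusted p = 0.00698). Cd36, a fatty acid and lipid scavenger receptor, rose by 0.50 and Stab1, stabilin-1, fell by 0.60. The Cd36 call was lost when any 1 of saline replicates 1 and 3 and IL-10 replicate 2 was left out and with upper-quartile scaling, and the Stab1 call when any 1 of saline replicate 3 and IL-10 replicates 1 and 2 was left out. Lrp1 (log2 -0.11) did not pass.

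Integrin alpha v, Itgav, the partner chain of the Mfge8 receptors, fell by 0.46 (from 37.6 ± 4.71 to 27.4 ± 1.69 CPM; edgeR quasi-likelihood, adjusted p = 0.02). The beta chains of those receptors, Itgb5 (log2 0.08) and Itgb3 (-0.53), did not pass. The Itgav call was lost when any 1 of 4 hearts (saline replicates 1 and 3, IL-10 replicates 1 and 2) was left out. The Rac activator Dock2 (log2 -0.75) lost its call without the same hearts and was also not called by limma-voom. Of the bridging proteins and opsonins, annexin A5, Anxa5, fell from 238 ± 10.2 to 149 ± 11 CPM (log2 -0.67; adjusted p = 0.000958), whereas C1qa (log2 0.11) did not pass. The fractalkine receptor Cx3cr1 (log2 -1.01), its ligand Cx3cl1 (-0.64), the find-me channel Panx1 (-0.68) and the scramblase gene Ano6 (-0.61) fell. Cx3cl1 and Panx1 too were not called without any 1 of those 4 hearts, and Ano6 not without IL-10 replicate 1 or 2. Ggcx, the carboxylase that activates Gas6 and protein S, fell from 20.7 ± 1.49 to 13.3 ± 1.19 CPM (log2 -0.63; adjusted p = 0.00523). Rxra, a nuclear receptor partner of LXR, rose by 0.62. Vkorc1 (log2 0.46), the LXR alpha gene Nr1h3 (0.33) and the sheddase gene Adam17 (-0.04) did not pass. Anxa5, Cx3cr1, Ggcx, Rxra and Timd4 kept their calls in each of the 14 alternatives.

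In Cd163-/- macrophages 16 of 77 tested clearance genes rose and 19 fell, with a median log2 fold change of 0.08, where 13.1% of all tested genes rose and 13.3% fell with a median of 0.01. Without Cd163-/- replicate 1 or 2 only 6 rose, and 5 and 8 fell, and without wild-type replicate 1 there were 26 rises. Of 13 tested phosphatidylserine receptor genes 3 rose, 2 fell and 8 were not called. Stab1 went from 274 ± 108 to 1220 ± 225 CPM (log2 2.15; edgeR quasi-likelihood, adjusted p = 0.00706), and Havcr2, TIM-3, rose by 2.66. Timd4 went the other way, with 41 and 43 counts in wild-type and 2 and 3 counts in Cd163-/- cultures (log2 -4.22, adjusted p = 0.0031). The scavenger receptor gene Scarf1 fell by 1.44. Stab2 (log2 2.15) was under 2 CPM, and its call was lost without wild-type replicate 2 or either knockout replicate. Lrp1 (log2 0.75) and Cd36 (0.84) did not pass.

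Itgb5, the integrin beta 5 chain that Mfge8 binds, had the smallest p of the engulfment list. It rose from 61.6 ± 15.3 to 352 ± 14.4 CPM (log2 2.52 with an SE of 0.20, adjusted p = 0.00125 by edgeR). Rubcn (log2 0.68) and Ucp2 (0.93) rose, and the lipid exporter gene Abca1 (-0.90), the GTPase gene Rac2 (-1.20) and the autophagy gene Atg5 (-0.52) fell. The complement genes C1qa (log2 0.85) and C1qc (0.92) rose, and C3 (-1.50) and the pentraxin gene Ptx3 (-3.36) fell. Of these engulfment and opsonin genes only Itgb5 was called both without Cd163-/- replicate 1 and without replicate 2, and the other 9 in neither case. The partner chain of Itgb5, Itgav, was called lower in the same cultures (log2 -0.43; edgeR quasi-likelihood, adjusted p = 0.0451). The beta 3 chain Itgb3 (log2 0.71) did not pass. Cx3cr1 was at 1.90 and 0.508 CPM in wild-type and 90.3 and 52.2 CPM in Cd163-/- cells (log2 5.86, adjusted p = 0.00175). The sphingosine-1-phosphate receptor gene S1pr1 (log2 2.06) and Siglecg (2.23), which encodes a sialic acid-binding lectin, rose, and the ATP receptor gene P2ry2 (-1.26), the scramblase gene Xkr8 (-2.18) and the flippase subunit gene Tmem30a (-0.44) fell. The Siglecg call was lost without Cd163-/- replicate 1, and that of Tmem30a without any 1 of the 4 libraries, with upper-quartile scaling and with library size alone.

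Of 19 genes that act on the TAM receptors or their ligands, 5 rose and 7 fell in the Cd163-/- macrophages, beside 13.1% and 13.3% of all tested genes. Adam17, whose protease sheds Mertk from the cell surface, fell from 525 ± 43.6 to 150 ± 17.1 CPM (log2 -1.81 with an SE of 0.16, adjusted p = 0.00158 by edgeR). Nr1h3 (log2 -1.51), Nr3c1, the glucocorticoid receptor (-1.33), the interferon receptor gene Ifnar2 (-0.79) and Socs3, a feedback inhibitor of cytokine signalling (-4.63), fell. Without Cd163-/- replicate 1 none of these 4 passed, and without replicate 2 Ifnar2 did not. Ggcx (log2 0.22) and Vkorc1 (0.78) did not pass. Of the 27 called clearance genes that the naming rule took in macrophages, 10 kept their call without Cd163-/- replicate 1 and 14 without replicate 2. The 10 were Timd4, Stab1, Havcr2, Scarf1, Itgb5, Cx3cr1, P2ry2, S1pr1, Xkr8 and Adam17.

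**Figure D5:**
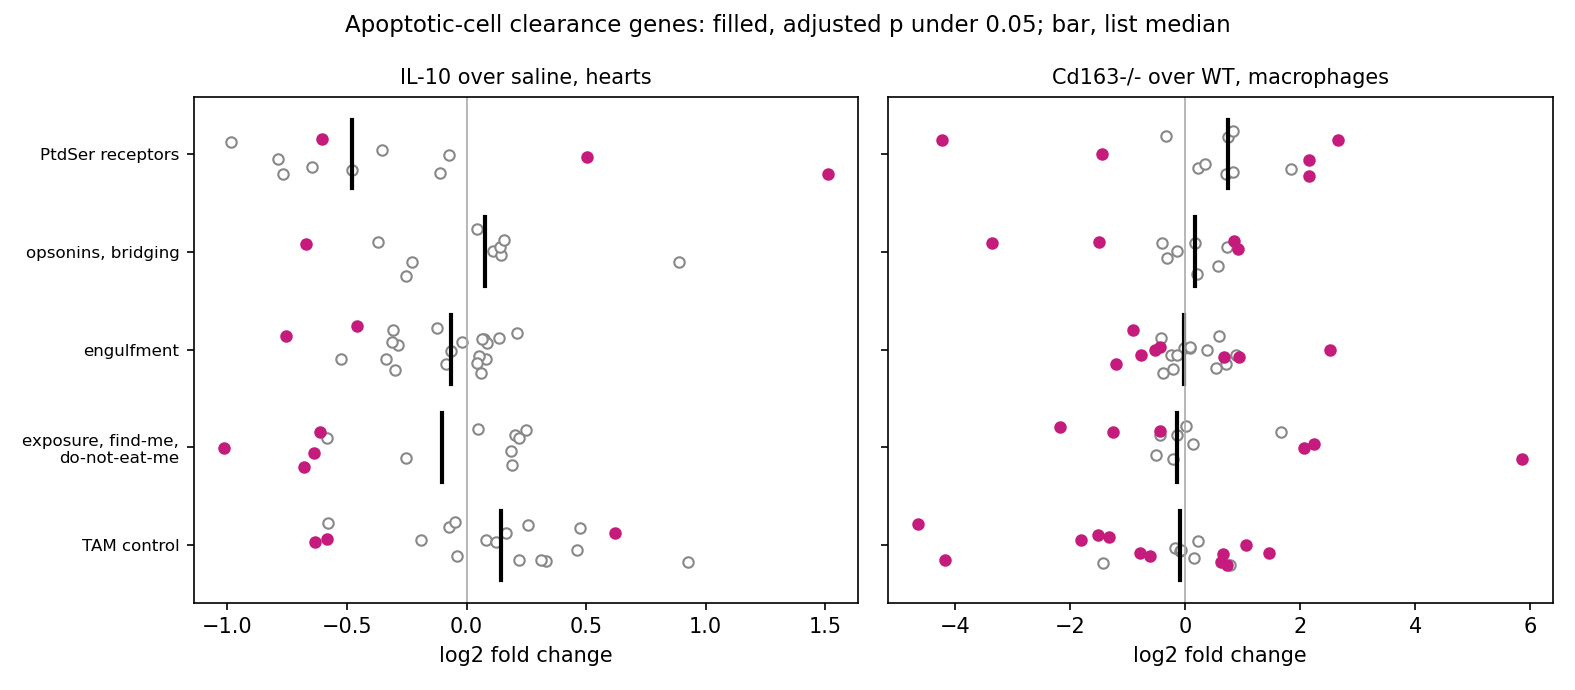
Log2 fold change of the tested genes of 5 apoptotic-cell clearance lists in hearts (left, IL-10 over saline) and macrophages (right, Cd163-/- over wild type). Filled points passed an adjusted p under 0.05 and bars are list medians. Filled points lie on either side of 0 in both panels, 3 above and 10 below in hearts and 16 above and 19 below in macrophages.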

How the data were processed

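Gene counts were deposited as a heart table (6 libraries) and a macrophage table (4 libraries). The tools listed in the submitters' processing notes are HISAT2 2.2.1 for alignment and featureCounts, with no version, for counting. The deposited counts are whole numbers that the authors had not normalized. Both GRCm39 and mm10 are listed as builds, so coordinates here are those of GENCODE M21 or RefSeq on GRCm38. Per the labels' protocols the kit was NEBNext Ultra RNA, which does not mark strand, and the RNA text names livers. Of 55357 identifiers 52081 were named from GENCODE.

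Each table was fitted alone in R 4.3.3 with edgeR 4.0.16 (filterByExpr with minimum count 10 and minimum total 15, TMM, quasi-likelihood test). Benjamini-Hochberg adjustment ran over every tested gene of a table, and called means an adjusted p under 0.05. The SE is the absolute log2 fold change over the square root of F. A count of 3 equals 0.192 to 0.22 CPM in hearts and 0.149 to 0.191 CPM in macrophages, and intervals from counts would cover counting error only. Log2 CPM for correlations used a prior count of 2. On simulated data with 200 changed genes, 80% of 2-fold and 100% of 4-fold changes were recovered among 13718 heart genes (8 false calls). Among 13861 macrophage genes 61% and 95% were recovered (5 false calls). Every simulated gene was given the trended dispersion, and fewer genes changed than were called here. These rates therefore do not cover genes that vary more than the trend.

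Members and lists were chosen with earlier results of these data known. Named genes are the 6 members, up to 6 called genes per clearance list and comparison by smallest p, 9 fixed clearance genes, the 3 genes most like each member, and Cd163. Cd36 and Itgav in macrophages, Itgb5 in hearts and Itgb3 in both comparisons were named after their values were seen. So were the macrophage markers Cd14, Adgre1 and Lyz2, the fibroblast markers and the 6 neutrophil markers. Some genes that this rule takes are not reported here. Alternatives were no filter or 1 CPM in every library of a group, scaling by DESeq2 (1.42.0) size factors, by upper quartile or by library size alone, the DESeq2 Wald test, limma-voom (limma 3.58.1), the replicate number as a block, and leaving out each library, which in macrophages takes the spread of a group's single remaining culture from the other genotype. No 2 libraries of a group agreed within sampling noise (chi-square per degree of freedom at least 10.7).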

Additional observations from a re-analysis of the deposited data

How the results depend on the processing

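The 6 members kept their direction in all 14 heart and all 12 macrophage alternatives. The changes of call given here are not all of those among the members. In hearts the Mfge8 fold change was -0.51 to -0.30 on the log2 scale with 1 heart left out. In macrophages Axl was called with upper-quartile scaling (log2 0.72), library size alone (0.79), no filter (0.60) and DESeq2 (0.60), and ran from 0.42 to 0.81 with 1 culture left out. Mfge8 was called there with library size alone (0.83), no filter (0.64) and DESeq2 (0.64), and ran from 0.35 to 0.89. Gas6 ran from 2.23 to 3.52 and Pros1 from 0.54 to 0.87. With 1 library left out, 450 to 1082 genes were called higher and 447 to 1012 lower in hearts, and 360 to 1838 and 374 to 1973 in macrophages, the fewest there without Cd163-/- replicate 1. Library size alone gave 549 higher in hearts and 1220 lower in macrophages. Of the clearance genes 2 to 5 rose and 3 to 11 fell in hearts, and 6 to 26 and 5 to 20 in macrophages. Without a filter 6 rose in hearts and 28 in macrophages, where more genes were tested (24565 and 24809). With 1 heart left out, 3 uncalled genes turned sign: C1qa (-0.023 to 0.36, below 0 without saline replicate 2), Lrp1 (-0.26 to 0.0040, above 0 without saline replicate 3) and Adam17 (-0.087 to 0.019, above 0 without IL-10 replicate 3). The cause was not tested.

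The replicate numbers are not stated to pair libraries, and same-numbered libraries did not deviate together (correlations of -0.23, 0.07 and -0.01 in hearts and -0.14 in macrophages). With the replicate block 772 genes were called higher and 751 lower in hearts and 1308 and 1348 in macrophages. Mfge8 in hearts was not called under the block (log2 -0.39, adjusted p = 0.0656), Gas6 and Pros1 in macrophages were (adjusted p = 0.00457 and 0.0304, edgeR quasi-likelihood). Of the 27 called clearance genes taken by the naming rule in macrophages, 23 were called under the block, and C1qa, C1qc, Atg5 and Tmem30a were not. With 2 cultures a group and 13 counts of Tyro3 in each wild-type library, depth and number limit what can be seen.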
